A study of Mus musculus with 6 samples.

Results

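The genes described here are Tgm2, a classical retinoid-induced gene, the retinoic acid receptor genes Rara and Rarg, the retinoid X receptor genes Rxra and Rxrb, and Dhrs3, a gene of retinoid metabolism. They were chosen by gene symbol, 6 of the 19390 symbols in the table, with the KO against WT difference of these same libraries already known. Their difference between the groups is therefore given as a description, without a test. The libraries are bulk RNA-seq of splenic γδ T cells, lymphocytes whose antigen receptor pairs a γ with a δ chain, sorted by flow cytometry at a mouse age of 6 weeks. The 3 KO-labelled libraries were taken to be from USF3-f/f; CD2-cre mice, in which Cre recombinase under CD2 regulatory sequences acts in lymphoid cells, and the 3 WT-labelled libraries from USF3-f/f mice without Cre. Both groups carry the floxed alleles and only the KO-labelled one the transgene, so Cre and the deletion cannot be told apart. The labels do not say whether each library is a separate animal, so errors and p-values measure only the spread between these libraries.

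Retinoic acid, the active form of vitamin A, binds retinoic acid receptors (RARs), which sit on DNA paired with a retinoid X receptor (RXR). Without ligand the pair holds co-repressors, and with ligand it recruits co-activators and turns target genes on. Dehydrogenases make retinaldehyde from retinol and retinoic acid from retinaldehyde, DHRS3 turns retinaldehyde back into retinol, and the CYP26 enzymes break retinoic acid down. In lymphocytes retinoic acid is best known for imprinting homing to the gut. TGM2, tissue transglutaminase, cross-links proteins between glutamine and lysine residues and also binds GTP.

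Totals ran from 34644862 to 35806402 counts per library, and 12810 genes passed the filter on low counts. Usf3, the targeted gene, had 2532, 2360 and 2348 counts in KO-labelled replicates 1, 2 and 3 and 2499, 2527 and 2593 in WT-labelled replicates 1, 2 and 3, and did not pass the test (log2 fold change -0.076 ± 0.043, SE; edgeR adjusted p = 0.261). Which exons were floxed is not given in the labels, so a count over the whole gene does not check the labels, and the groups are called KO-labelled and WT-labelled. The T cell genes Cd3d, Cd3e, Cd3g and Cd247 were abundant, at 24.9 to 333 FPKM in KO-labelled and 24.1 to 372 FPKM in WT-labelled cells, while the γδ antigen receptor genes on the marker list were not analysed here. Cd3d, Cd3e and Cd3g were lower in KO-labelled cells by edgeR (log2 fold changes -0.12, -0.076 and -0.17; adjusted p = 0.00287, 0.0364 and 5.91e-05), and the γδ marker list summed to 1151 to 1210 CPM in KO-labelled and 1247 to 1267 CPM in WT-labelled libraries. At an adjusted p under 0.05 over all tested genes by edgeR, 17.3% of genes were called, 7.23% higher and 10.1% lower in KO-labelled libraries.

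Of the 6 genes, 5 passed the filter on low counts. A call at this threshold was made for 2 of these 5, Rxra (higher) and Tgm2 (lower), against 17.3% of all tested genes, and the same 2 had groups that did not overlap, against 32.1% of all tested genes. The contrast served to choose the genes, so nothing is read from these counts.

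Tgm2 was the gene that stood furthest apart. Its deposited counts were 1126, 1232 and 1169 in KO-labelled replicates 1, 2 and 3 and 3865, 3643 and 3727 in WT-labelled replicates 1, 2 and 3. As CPM, counts scaled to a common library size, Tgm2 stood at 33.4 ± 1.21 in KO-labelled and 106 ± 1.97 in WT-labelled cells (SD, n = 3 each). All 3 KO-labelled libraries lay far below all 3 WT-labelled ones, with no intermediate library. The log2 fold change was -1.67 ± 0.043 (SE), which is 3.19-fold lower in KO-labelled cells. Of the 12810 tested genes 25 had a lower log2 fold change, and 5 of these had a mean of at least 2 CPM.

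Within each group Tgm2 varied little. Its coefficient of variation was 3.62% among KO-labelled and 1.85% among WT-labelled libraries, where counting error alone gives 2.92% and 1.63%. Per length, in FPKM (counts scaled by library total and gene length), Tgm2 exceeded 57.6% of tested genes in KO-labelled cells and 81.3% in WT-labelled cells. In bulk RNA, fewer cells that express a gene and less RNA in each cell cannot be told apart.

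In the GENCODE M21 annotation of the build GRCm38, exons of Tgm2 share 370 of 4608 bases with Rprd1b, a gene of an RNA polymerase II-binding protein on the opposite strand. No source used here says whether counting used strand. Rprd1b, looked up because of this overlap, stood at 75.9 ± 2.40 CPM in KO-labelled and 74.7 ± 2.12 CPM in WT-labelled cells (SD, n = 3 each). A non-coding gene, Gm20412, shares 633 exonic bases with Tgm2 and was not analysed here.

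**Figure D1:**
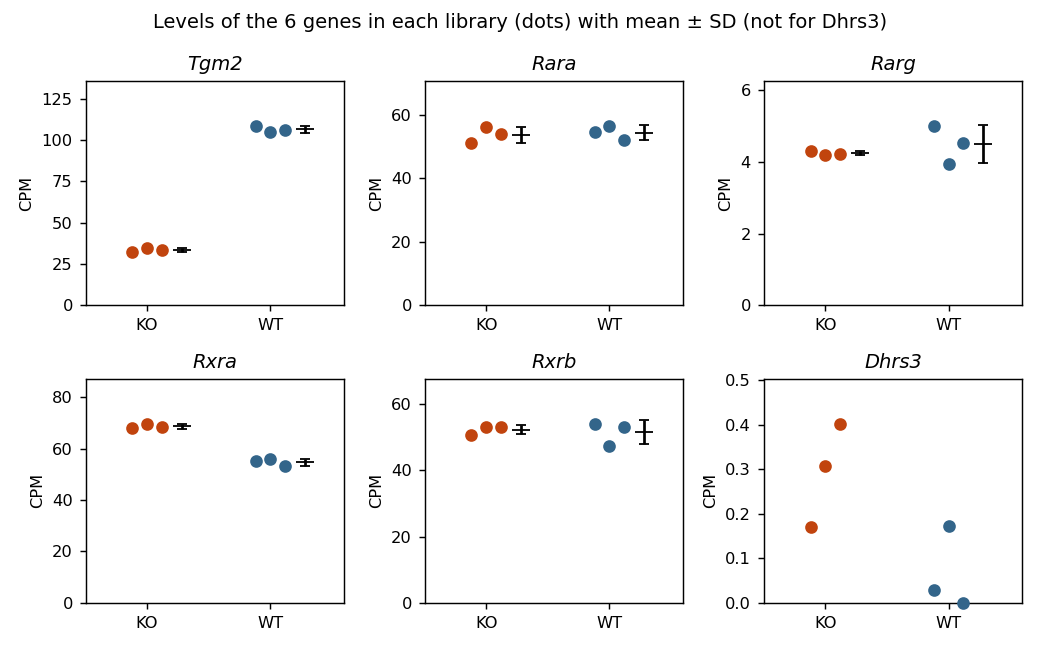
Levels in CPM of Tgm2, Rara, Rarg, Rxra, Rxrb and Dhrs3 in the 3 KO-labelled (left) and 3 WT-labelled (right) libraries; each dot is a library, and bars give the mean and SD (left out for Dhrs3, which has a library at 0). The groups are apart for Tgm2, lower in KO-labelled libraries, and for Rxra, higher in them, and overlap for the other 4 genes.

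Of the retinoid X receptors, Rxra lay apart between the groups and Rxrb overlapped. Rxra, the partner of RARs and of several other nuclear receptors, had 2384, 2497 and 2384 counts in KO-labelled replicates 1, 2 and 3 and 1964, 1940 and 1865 in WT-labelled replicates 1, 2 and 3. Its level was 68.7 ± 0.959 CPM in KO-labelled and 54.7 ± 1.43 CPM in WT-labelled cells (SD, n = 3 each), and every KO-labelled library lay above every WT-labelled one. The log2 fold change was 0.33 ± 0.042 (SE), or 25.7% higher. This is a difference in the opposite direction to that of Tgm2 and much smaller. Coefficients of variation were 1.40% and 2.62%, close to the 2.03% and 2.28% of counting error.

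Rxrb, the other RXR gene expressed, had 50.6, 52.9 and 53.0 CPM in KO-labelled replicates 1, 2 and 3 and 54.0, 47.4 and 53.0 CPM in WT-labelled replicates 1, 2 and 3. The groups overlapped, and WT-labelled replicate 2 was the lowest library. The log2 fold change of 0.019 ± 0.051 (SE) was smaller than its error, with a 95% interval from -0.086 to 0.12. Rxrg, the third RXR gene, was not analysed here.

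The RAR genes overlapped between the groups. Rara, the main RAR of T cells, had 50.9, 56.1 and 53.8 CPM in KO-labelled replicates 1, 2 and 3 and 54.6, 56.4 and 52.0 CPM in WT-labelled replicates 1, 2 and 3. Its log2 fold change was -0.020 ± 0.048 (SE), with a 95% interval from -0.12 to 0.081. Rarg, a second RAR gene, had 4.30, 4.19 and 4.23 CPM in KO-labelled replicates 1, 2 and 3 and 5.00, 3.94 and 4.52 CPM in WT-labelled replicates 1, 2 and 3. WT-labelled libraries span the KO-labelled ones, and the log2 fold change of -0.083 ± 0.155 (SE) has a wide 95% interval, from -0.40 to 0.24, on 147 to 151 counts per KO-labelled and 137 to 178 per WT-labelled library. Rarb was not analysed here.

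Promoter windows of the receptors that differ and do not differ are shown to set their sequences beside the values. RefSeq windows of 300 bases around a start site, in the build GRCm38.p6, were at hand for Rara, Rarg, Rxra, Rxrb and Dhrs3, and not for Tgm2. They were searched on both strands for CACGTG, the E-box core bound by USF1 and USF2, for the RAR and RXR half-sites AGGTCA and AGTTCA, and for direct repeats of these half-sites spaced by 1, 2 or 5 bases. Capitals mark the matches.
Rara, chr11:98937446-98937745, plus strand: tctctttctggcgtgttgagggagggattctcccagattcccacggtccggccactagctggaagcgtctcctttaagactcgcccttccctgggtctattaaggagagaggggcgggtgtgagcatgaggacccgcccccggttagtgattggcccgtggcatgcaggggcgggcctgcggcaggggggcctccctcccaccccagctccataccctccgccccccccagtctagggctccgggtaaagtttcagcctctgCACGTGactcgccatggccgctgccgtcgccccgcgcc
Rxra, chr2:27676951-27677250, plus strand: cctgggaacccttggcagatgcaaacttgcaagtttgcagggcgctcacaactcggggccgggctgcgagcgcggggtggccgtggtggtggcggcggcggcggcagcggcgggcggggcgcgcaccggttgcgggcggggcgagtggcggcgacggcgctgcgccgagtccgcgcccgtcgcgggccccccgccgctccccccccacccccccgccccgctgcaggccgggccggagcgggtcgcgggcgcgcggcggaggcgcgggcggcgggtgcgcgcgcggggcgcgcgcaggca
Rxra second start, chr2:27709042-27709341, plus strand: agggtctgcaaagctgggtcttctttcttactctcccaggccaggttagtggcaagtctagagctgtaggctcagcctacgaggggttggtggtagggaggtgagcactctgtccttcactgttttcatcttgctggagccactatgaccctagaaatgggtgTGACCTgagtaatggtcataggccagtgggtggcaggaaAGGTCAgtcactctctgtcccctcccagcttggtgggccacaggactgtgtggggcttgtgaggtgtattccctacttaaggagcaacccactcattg

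The Rara window holds 1 E-box, at bases 263 to 268, and a shifted window of a neighbouring Rara start holds the same one. The first Rxra window holds none of these motifs, and the second holds AGGTCA at bases 203 to 208 and, on the other strand, at bases 164 to 169. The windows of Rxrb and Dhrs3 hold none, 1 of 2 Rarg windows holds AGGTCA, and among the 2 other Rara windows 1 holds AGTTCA and 1 AGGTCA. In 32851 windows of the same length, 7.15% hold the E-box, 16.3% AGGTCA and 14.0% AGTTCA. Direct repeats with a spacing of 1, 2 or 5 were found in 0.0822%, 0.0396% and 0.0396% of them, and in none of these genes' windows. A match is only a match of letters. The counts are of whole genes, so they do not say which start site was used.

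Dhrs3, whose enzyme lowers the supply of retinaldehyde and whose gene is itself retinoid-induced, was barely detected. It had 6, 11 and 14 counts in KO-labelled replicates 1, 2 and 3 and 1, 6 and 0 counts in WT-labelled replicates 1, 2 and 3. KO-labelled replicate 1 equalled WT-labelled replicate 2, so the groups meet. Summed over libraries, 31 against 7 counts give a ratio of 4.42 per scaled library size, with an exact Poisson 95% interval from 1.91 to 11.9 that covers counting error only. Without WT-labelled replicate 2 the ratio was 20.7, resting on 1 count in the WT-labelled group. Its mean FPKM was 0.0610 in KO-labelled and 0.0138 in WT-labelled cells.

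**Figure D2:**
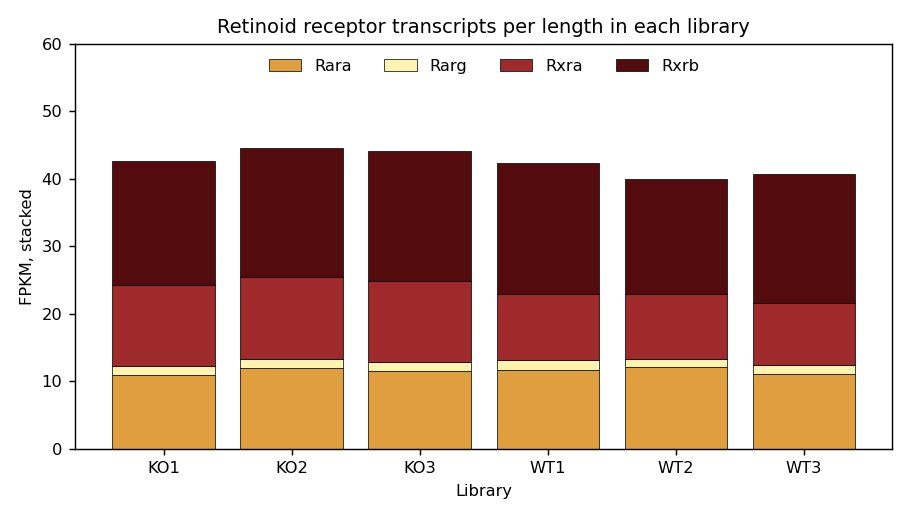
Stacked FPKM (per length) of Rara, Rarg, Rxra and Rxrb in each library, KO-labelled libraries first. Rxrb is the largest part in all 6 libraries and Rarg the smallest, and the Rxra part is larger in the 3 KO-labelled libraries.

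Per length the order of the levels differed between the groups. In KO-labelled cells Rxrb led with 18.9 ± 0.449 FPKM, followed by Rxra with 12.1 ± 0.136, Rara with 11.5 ± 0.525, Tgm2 with 9.43 ± 0.318, Rarg with 1.28 ± 0.0197 and Dhrs3 (SD, n = 3). Rxra and Rara overlap in this order, with 11.96 to 12.23 FPKM for Rxra and 10.98 to 12.03 FPKM for Rara. In WT-labelled cells Tgm2 came first with 29.9 ± 0.617 FPKM, then Rxrb with 18.5 ± 1.30, Rara with 11.6 ± 0.495, Rxra with 9.55 ± 0.271, Rarg with 1.35 ± 0.162 and Dhrs3 (SD, n = 3), and no neighbours overlap there. Tgm2 thus held the first place in WT-labelled cells and the fourth in KO-labelled cells.

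Rxra held a larger share of the RXR transcripts in every KO-labelled library. It made up 39.4%, 39.0% and 38.6% of the summed RXR FPKM in KO-labelled replicates 1, 2 and 3 and 33.1%, 36.4% and 32.7% in WT-labelled replicates 1, 2 and 3. The summed RXR level was 31.0 ± 0.555 FPKM in KO-labelled and 28.1 ± 1.201 FPKM in WT-labelled cells, and the summed RAR level 12.8 ± 0.506 and 12.96 ± 0.457 FPKM in KO-labelled and WT-labelled cells (SD, n = 3 each). Rara supplied 90.0% of the RAR level in KO-labelled and 89.6% in WT-labelled cells. RXR transcripts exceeded RAR transcripts in every library, 2.42 ± 0.058 times in KO-labelled and 2.17 ± 0.130 times in WT-labelled cells (SD, n = 3 each).

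**Figure D3:**
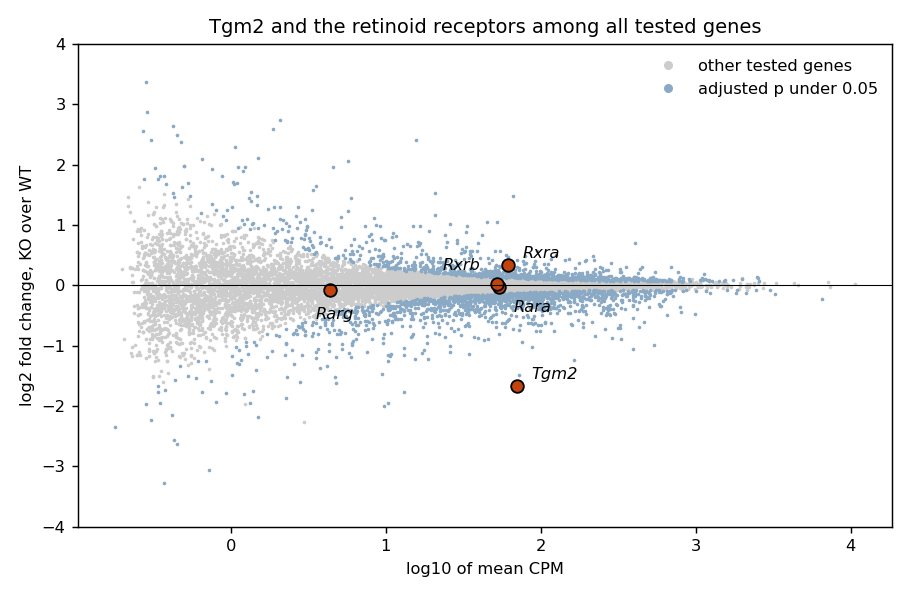
Log2 fold change of KO over WT against the log10 of mean CPM for 12810 tested genes; grey dots did not pass and blue dots passed an adjusted p of 0.05, orange dots are Tgm2 and the retinoid receptors, and 1 gene lies beyond the axis limit of 4. Tgm2, at -1.67, lies below nearly all genes of similar abundance, Rxra lies above 0 and Rara, Rarg and Rxrb lie near 0.

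Around these genes, 97 other genes of the retinoid pathway were listed by role, of which 76 had a row and 52 were tested. By edgeR 2 of the 52 were higher and 12 lower in KO-labelled libraries, 26.9% against 17.3% of all tested genes. The median log2 fold change was -0.015, beside 0.0014 over all tested genes. The lists differed among themselves. Genes that retinoic acid induces held 5 of the 12 lower genes. The share called was 16.7% for uptake, storage and transport and 20% for synthesis. It was 22.2% for partners of RXR and 21.1% for co-regulators, so these lists were near the 17.3% of all tested genes. The lists were chosen with earlier results of these data known, so nothing is read from these shares.

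Of retinoid uptake, storage and transport genes, 6 of 17 were tested, 1 was lower and 0 were higher. Dgat1, an acyltransferase that can esterify retinol, fell to 25.8 ± 1.72 CPM in KO-labelled cells, against 36.4 ± 1.23 CPM in WT-labelled cells (SD, n = 3 each; log2 fold change -0.50 ± 0.060, SE; edgeR adjusted p = 1.65e-06). Fabp5, which carries retinoic acid and fatty acids in the cytosol, had 62.0 ± 5.58 CPM in KO-labelled and 60.4 ± 3.48 CPM in WT-labelled cells (SD, n = 3 each) and did not pass. Pnpla2, a lipase of lipid droplets, did not pass either, at -0.048 ± 0.041 (log2 fold change, SE). The classical carriers Crabp1 and Crabp2 and the esterifying enzyme gene Lrat were under the count filter.

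Of genes listed under synthesis of retinaldehyde and retinoic acid, 10 of 23 were tested, 1 was higher and 1 lower. This list also takes in retinaldehyde reductase genes, among them the lower one. Adh5, an alcohol dehydrogenase known chiefly for formaldehyde detoxification, rose to 110 ± 6.34 CPM in KO-labelled cells, against 99.8 ± 4.15 CPM in WT-labelled cells (SD, n = 3 each; edgeR adjusted p = 0.0287). The libraries overlapped, and the Adh5 call was lost in 4 of the 6 fits that left out a library and with limma-trend on log2 of FPKM plus 0.1 or 1 (adjusted p = 0.0715 and 0.0709). Rdh11, a retinaldehyde reductase, fell by 0.17 on the log2 scale (SE 0.044; edgeR adjusted p = 0.00695), to 52.0 ± 0.885 CPM in KO-labelled cells, against 58.6 ± 1.84 CPM in WT-labelled cells (SD, n = 3 each). Rdh10, the main retinol dehydrogenase gene of the embryo and chosen here after its values were known, had 5.75, 5.45 and 5.01 CPM in KO-labelled replicates 1, 2 and 3 and 5.54, 4.92 and 5.12 CPM in WT-labelled replicates 1, 2 and 3, and did not pass. The retinaldehyde dehydrogenase genes Aldh1a2 and Aldh1a3, whose enzymes make retinoic acid itself, were under the filter, with 1 count of Aldh1a2 in the 6 libraries together. None of the 3 Cyp26 genes was tested, and no library had more than 4 counts of any of them.

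Of nuclear receptors that pair with RXR, 9 of 13 were tested, 0 were higher and 2 lower. Nr4a1, an orphan receptor induced by antigen receptor signals that can pair with RXR, was 64.3% lower, at 37.9 ± 2.29 CPM in KO-labelled and 106 ± 2.24 CPM in WT-labelled cells (SD, n = 3 each; edgeR adjusted p = 1.63e-16). Thrb, a thyroid hormone receptor gene, fell to 1.46 ± 0.0449 CPM in KO-labelled cells, against 2.60 ± 0.374 CPM in WT-labelled cells (SD, n = 3 each; edgeR adjusted p = 0.0160). The Thrb call was lost without WT-labelled replicate 1 (edgeR adjusted p = 0.0959). Nr4a2, the other NR4A member listed and picked with its value known, did not pass, at 0.019 ± 0.050 (log2 fold change, SE).

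Of co-regulators that receptors recruit, 19 of 20 were tested, 1 was higher and 3 lower, all by little. The acetyltransferase gene Kat2b, the co-repressor subunit gene Tbl1xr1 and the co-activator gene Ncoa2 fell by 0.28, 0.20 and 0.17 on the log2 scale (SE 0.048, 0.035 and 0.041). The arginine methyltransferase gene Prmt1 rose by 0.15 ± 0.030 (SE), to 226 ± 7.46 CPM in KO-labelled cells, against 204 ± 3.68 CPM in WT-labelled cells (SD, n = 3 each; edgeR adjusted p = 0.00107). The Ncoa2 call was lost without WT-labelled replicate 2 (edgeR adjusted p = 0.0792) and with limma-trend on log2 of FPKM plus 0.1 or 1 (adjusted p = 0.110 and 0.111). The co-repressor gene Ncor1, picked with its value known, did not pass, at 0.065 ± 0.025 (log2 fold change, SE).

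Of genes known to be induced by retinoic acid in some cell type, 9 of 27 were tested, 5 were lower and 0 higher, a share of 55.6% against 10.1% of all tested genes called lower. The median log2 fold change of the 9 was -0.39. This list was chosen with earlier results of these data known, so nothing is read from its share or its median. Hic1, a transcriptional repressor gene that depends on retinoic acid in intestinal T cells of mice, had 4.33, 5.06 and 5.61 CPM in KO-labelled replicates 1, 2 and 3 and 14.0, 14.3 and 13.4 CPM in WT-labelled replicates 1, 2 and 3. No KO-labelled library came near a WT-labelled one, and the log2 fold change was -1.47 ± 0.109 (SE; edgeR adjusted p = 5.90e-10). Irf1, an interferon-induced transcription factor gene that retinoic acid also raises, fell to 360 ± 4.05 CPM in KO-labelled cells, against 473 ± 12.8 CPM in WT-labelled cells (SD, n = 3 each; edgeR adjusted p = 5.74e-11).

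The other 3 fell less steeply than Hic1. Itga4, the α4 chain of the gut-homing integrin, changed by -0.41 ± 0.063 (log2 fold change, SE; edgeR adjusted p = 4.94e-05), and Asb2, a ubiquitin ligase gene first found as retinoic acid-induced in leukaemia cells, by -0.32 ± 0.064 (edgeR adjusted p = 0.000778). Foxp3, the regulatory T cell factor whose induction retinoic acid favours, had 8.31 ± 0.388 CPM in KO-labelled and 12.3 ± 1.01 CPM in WT-labelled cells (SD, n = 3 each; edgeR adjusted p = 0.000181). Foxp3 also marks another cell type, αβ regulatory T cells, and Cd4 had a mean under 1 CPM. Cd38, often used as a retinoic acid-induced gene and picked with its value known, did not pass, at 0.23 ± 0.090 (log2 fold change, SE). Ccr9, the gut-homing chemokine receptor, and Cyp26a1 and Cyp26b1 were under the count filter, as were 8 more genes of this list.

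**Figure D4:**
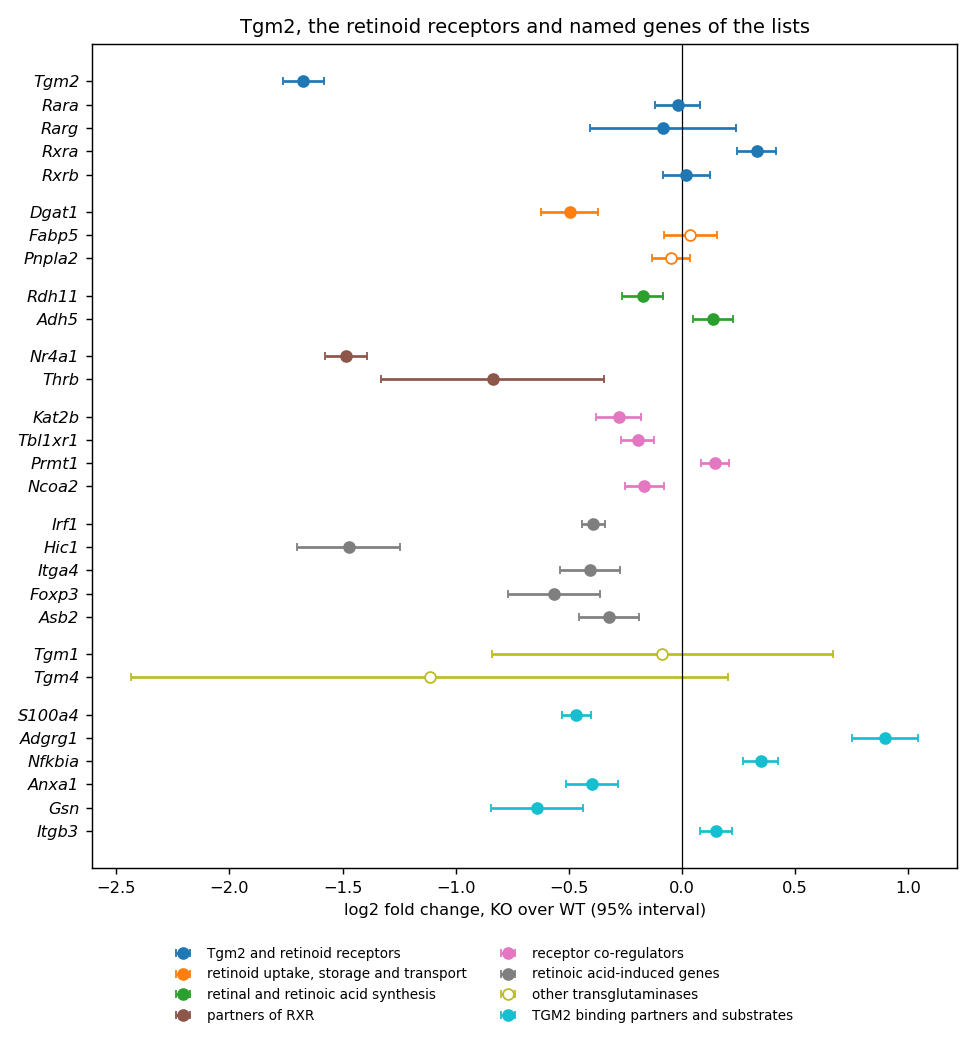
Log2 fold change of KO over WT with its 95% interval for Tgm2 and the retinoid receptors (given without a test) and for named genes of the lists, by list; filled circles passed and open circles did not pass an adjusted p of 0.05 by edgeR. The 5 named retinoic acid-induced genes and both named RXR partners lie left of 0. Both transglutaminases do too, with wide intervals that reach 0, and the other lists have named genes on both sides of 0. Of lists with at least 2 calls only called genes are drawn, so a shared side follows in part from this choice. Tested genes of the retinoic acid-induced and RXR partner lists without a call, some of them above 0, are not drawn.

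Of the transglutaminase genes with a row, only Tgm2 had a mean of at least 1 CPM; Tgm3, Tgm5, Tgm6 and Tgm7 were not analysed here. Tgm1, the enzyme of the cornified skin envelope, had 27, 33 and 23 counts in KO-labelled replicates 1, 2 and 3 and 36, 30 and 22 counts in WT-labelled replicates 1, 2 and 3, and did not pass (log2 fold change -0.088 ± 0.363, SE). Tgm4, the prostate enzyme, had 6, 5 and 10 counts in KO-labelled replicates 1, 2 and 3 and 19, 2 and 25 counts in WT-labelled replicates 1, 2 and 3, and did not pass. F13a1, the clotting factor XIII subunit, and Epb42, a red cell membrane protein without enzyme activity, had too few counts to test.

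Genes of proteins that bind TGM2 or serve as its substrates were called in both directions, 4 higher and 5 lower of 16 tested. That is 56.2%, against 17.3% of all tested genes, and the median log2 fold change was 0.033. Sdc4 is among the 5 lower genes, although only its WT-labelled counts carried it past the filter. A share without Sdc4 was not computed. As this list was picked with earlier results known, nothing is read from its share or its median. Adgrg1, the adhesion receptor GPR56 that binds TGM2, had 24.5, 25.3 and 23.8 CPM in KO-labelled replicates 1, 2 and 3 and 13.4, 13.3 and 12.9 CPM in WT-labelled replicates 1, 2 and 3. It rose by 0.90 ± 0.070 on the log2 scale (SE; edgeR adjusted p = 1.43e-09) with no overlap between the groups. Nfkbia, the NF-κB inhibitor that TGM2 can cross-link, rose by 0.35 ± 0.038 (SE) and the integrin gene Itgb3 by 0.15 ± 0.035 (SE), with edgeR adjusted p of 2.68e-07 and 0.00345.

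Lower in KO-labelled cells were S100a4, Anxa1 and Gsn, which encode a calcium-binding protein, a phospholipid-binding annexin and the actin-severing gelsolin. Their log2 fold changes were -0.47 ± 0.030, -0.40 ± 0.055 and -0.64 ± 0.099 (SE). S100a4 was the most abundant of the 3, at 274 ± 6.93 FPKM in KO-labelled and 377 ± 10.1 FPKM in WT-labelled cells (SD, n = 3 each). Sdc4, a heparan sulfate proteoglycan that binds TGM2, was chosen after its values were seen. It had 5, 2 and 8 counts in KO-labelled replicates 1, 2 and 3 and 20, 19 and 20 in WT-labelled replicates 1, 2 and 3, and thus passed the filter only through the WT-labelled group. Fibronectin, the best-known extracellular partner of TGM2, had too few counts of its gene Fn1 to test.

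The genes whose pattern over the 6 libraries was most like that of Tgm2 were Ifit1, Ccl5, Nr4a1, Hic1 and Scart2. Likeness was the root mean square difference of log2(CPM + 0.1) after each gene's mean was taken off, over 10413 other tested genes with a mean of at least 2 CPM. It was 0.113 for Ifit1, 0.126 for Ccl5, 0.126 for Nr4a1, 0.139 for Hic1 and 0.159 for Scart2. Nr4a1, at 7.56 ± 0.472 FPKM in KO-labelled and 21.0 ± 0.418 FPKM in WT-labelled cells (SD, n = 3 each), was near Tgm2 in level too. Ifit1 was near 1 CPM in KO-labelled libraries, with 0.939, 0.950 and 1.06 CPM in replicates 1, 2 and 3, against 3.32, 3.42 and 4.01 CPM in WT-labelled replicates 1, 2 and 3. Hic1 is also on the list of retinoic acid-induced genes and Nr4a1 on that of RXR partners. The Tgm2 pattern is mainly the difference between the groups, so likeness here is mainly a similar fold change. Whether these genes share a regulator was not tested.

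**Figure D5:**
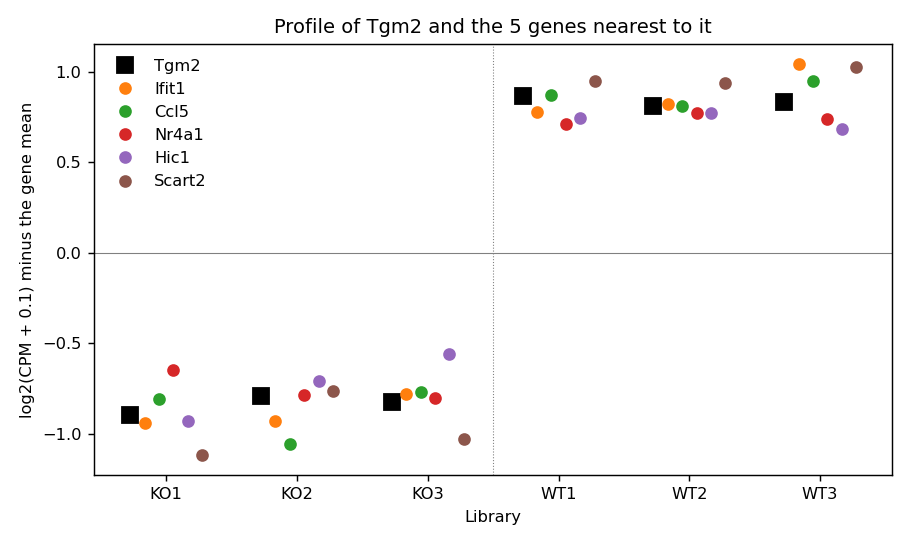
Log2(CPM + 0.1) minus the gene's mean over the 6 libraries for Tgm2 (black squares) and the 5 genes nearest to it, KO-labelled libraries left of the dotted line. All 6 genes lie below 0 in every KO-labelled library and above 0 in every WT-labelled one, and they differ from each other most in KO-labelled replicates 1 and 3. The 5 genes were picked by this profile, so the shared separation of the groups follows from the choice.

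Macrophages and endothelial cells of the spleen also express Tgm2, so their markers are given beside it. Of 15 macrophage and monocyte markers 11 had a row, and 9 of these had means under 1 CPM. Adgre1, C1qa and C1qb, which define tissue macrophages, had 1 count each over all 6 libraries, in each case in a KO-labelled one. Csf1r, Mertk, Marco and Vcam1 had counts in WT-labelled libraries only, as Tgm2 was higher there. Csf1r had 1, 0 and 4, Mertk 0, 0 and 2, Marco 0, 1 and 0, and Vcam1 4, 0 and 0 counts in WT-labelled replicates 1, 2 and 3. Lyz2 had 1, 1 and 3 counts in KO-labelled replicates 1, 2 and 3 and 0, 14 and 0 counts in WT-labelled replicates 1, 2 and 3, and Cd14 had 0, 1 and 0 counts in KO-labelled and 1, 5 and 1 counts in WT-labelled replicates 1, 2 and 3. The list summed to 817 ± 50.8 CPM in KO-labelled and 759 ± 23.5 CPM in WT-labelled cells (SD, n = 3 each), nearly all of it Ccr2, which γδ T cells also express. Without Ccr2 the other 10 summed to 6.03 to 6.71 CPM in KO-labelled and 7.28 to 9.95 CPM in WT-labelled libraries, most of it Cd68, which fell (log2 fold change -0.43 ± 0.125, SE; edgeR adjusted p = 0.0179). The Cd68 call was lost without WT-labelled replicate 2 or 3 (edgeR adjusted p = 0.130 and 0.0734). Tgm2 itself stood at 33.4 CPM in KO-labelled and 106 CPM in WT-labelled cells.

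Of endothelial and stromal markers 7 of 10 had a row. Pecam1, which leukocytes also express, fell to 44.0 ± 2.00 CPM in KO-labelled cells, against 57.7 ± 5.88 CPM in WT-labelled cells (SD, n = 3 each; edgeR adjusted p = 4.10e-05), and the other 6 summed to 1.02 to 1.14 CPM in KO-labelled and 0.927 to 1.28 CPM in WT-labelled libraries. Dendritic cell markers summed to 20.6 ± 1.93 CPM in KO-labelled and 18.8 ± 0.777 CPM in WT-labelled cells, led by Cd74 and H2-Ab1, neither of which passed. B cell markers summed to 5.91 ± 1.04 and 6.26 ± 0.377 CPM in KO-labelled and WT-labelled cells, mostly Cd79b, and neutrophil and red cell markers to at most 0.431 CPM in any library. Markers of αβ T and NK cells summed to 104 ± 2.40 CPM in KO-labelled and 106 ± 3.35 CPM in WT-labelled cells (SD, n = 3 each), led by Klrb1c and Cd8b1, which did not pass. Without Klrb1c the other 4 with a row summed to 27.1 to 27.9 CPM in KO-labelled and 32.2 to 33.1 CPM in WT-labelled libraries, lower in every KO-labelled library, as Tgm2 was. Most of this gap was Foxp3, with means of 8.31 CPM in KO-labelled and 12.3 CPM in WT-labelled cells. In the same order, Cd8b1 had means of 17.8 and 18.1 CPM, Cd4 of 0.463 and 0.522 CPM, and Ncr1 of 0.965 and 1.85 CPM. Foxp3, on this list too, fell by 0.57 on the log2 scale (SE 0.098; edgeR adjusted p = 0.000181). Ncr1, an NK cell receptor gene on that list, fell (log2 fold change -0.93 ± 0.309, SE; edgeR adjusted p = 0.0398), a call lost without KO-labelled replicate 1 or WT-labelled replicate 1 or 2 (edgeR adjusted p = 0.176, 0.222 and 0.106). The part of other cell types in the Tgm2 difference was not tested beyond these values.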

How the data were processed

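Per the labels' protocols, RNA came from TRIzol lysates and libraries from a VAHTS Universal V6 kit. The submitters' processing notes name fastp, HISAT2, HTSeq and the build GRCm39. No source used here gives their versions, settings, annotation or strand use. The deposited counts are whole numbers per gene symbol without normalization, and every one of the 19390 rows had at least 1 count. The deposited FPKM equal these counts over the column total and 1 length per gene, within 3.4e-06 bp, so they served for levels per length.

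The main test was edgeR's quasi-likelihood test (version 4.0.16, R 4.3.3) on the deposited counts: TMM scaling, filterByExpr (12810 genes kept; 0.0366% of counts left out), glmQLFit and glmQLFTest on the label, and Benjamini-Hochberg adjustment over all tested genes, with a call at an adjusted p under 0.05. The SE was taken from the fold change and its F statistic, intervals are 95%, and CPM use TMM-scaled totals. The common biological coefficient of variation was 4.16%. Between libraries of 1 label, chi-square over degrees of freedom was 3.28 to 7.24, above sampling noise. Each library was taken as 1 replicate, but this spread does not show that each is a separate animal. The scripts were tested on simulated counts.

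The genes, the lists and their roles were chosen with earlier results of these data known. The text names Usf3, the 6 genes, up to 6 called genes of each list by smallest p (the 2 of highest FPKM where fewer than 2 passed), the 2 most abundant and up to 2 called markers of each cell type list, and the 5 genes most like Tgm2; others are said to be chosen after their values were seen. Promoters are RefSeq's, of GRCm38.p6, matched by symbol for 5 of the 6 genes. Alternatives used edgeR, DESeq2 1.42.0 and limma 3.58.1.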

Additional observations from a re-analysis of the deposited data

How the results depend on the processing

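Under 10 other settings (RLE, upper-quartile or total-count scaling, no count filter, at least 1 CPM in at least 3 libraries, DESeq2, limma-voom, limma-trend on log2 of FPKM plus 0.1 or 1, and the replicate block) the log2 fold change of Tgm2 ran from -1.67 to -1.57, the latter with a pseudocount of 1, which compresses folds, and that of Rxra from 0.31 to 0.34. With each library left out they ran from -1.70 to -1.65 for Tgm2, 0.31 to 0.35 for Rxra, -0.053 to 0.016 for Rara, -0.17 to 0.0035 for Rarg and -0.035 to 0.057 for Rxrb, and from 2.95 to 20.7 for the Dhrs3 ratio. Retinoid pathway genes called lower numbered 10 to 13 under all settings, against 12. Those called higher numbered 4 with upper-quartile scaling and 4 with total counts, and 1 to 3 with a library left out, against 2; these are counts of few genes near the threshold, and the cause was not tested. Calls over all genes ran from 1660 to 2353, against 2219. Of 30 named genes with a call, 23 kept it under every setting that gave them a value, and none changed sign. The Cd3e call was lost in 10 settings and the Ccr2 call in 7, among them DESeq2 for Ccr2. Cd74, without a call in the main fit, gained a call in 1 of 16 settings. Among genes without a call, leaving out a library turned the sign of Fabp5 (-0.0070 and -0.0088; range -0.0088 to 0.11), Tgm1 (0.020 and 0.077; range -0.25 to 0.077) and Cd8b1 (0.00077; range -0.042 to 0.00077). The labels do not say whether replicate numbers pair the libraries. Correlations of same-numbered libraries' deviations were low (0.048, -0.044 and -0.072), which with so few libraries cannot exclude pairing. With the replicate block Tgm2 was at -1.67, 14 retinoid genes were called, and the Cd3e and Ncr1 calls were lost (edgeR adjusted p = 0.0551 and 0.0788). Dhrs3, the 3 Cyp26 genes, Aldh1a2 and Aldh1a3 were under the count filter, so the main test did not cover them. The fits without that filter held them, and their values there are not given here.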
